A study of Mus musculus with 6 samples.

Results

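The transcripts described here are 6 long non-coding RNAs (lncRNAs) of the mouse liver: the nuclear RNAs Neat1, Malat1 and Miat and the imprinted RNAs Kcnq1ot1, Meg3 and Rian. They were taken by symbol from a table of 56674 gene rows, and each of the 6 had 1 row. They were chosen by their read counts in these same 6 libraries, control against PP-MP, so their levels by diet are a description and carry no test. The livers came from male C57BL/6 mice kept to 71 weeks. Of the libraries, 3 were from normal chow (control) and 3 from chow that held microplastic particles of polypropylene (PP-MP). The treatment field names PS-MP for all 6 samples, and the groups follow the titles. The sources used here give no dose, particle size or length of feeding. Nothing in them ties each replicate to its own animal, so errors and p-values describe only the spread of these libraries, which may be technical.

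Neat1 is the scaffold of paraspeckles, nuclear bodies that hold RNA-binding proteins and retained transcripts, and it is known to respond to cell stress. Malat1 is transcribed next to Neat1, collects in nuclear speckles where splicing factors are stored, and ends in a triple helix cut by RNase P in place of a poly(A) tail. Kcnq1ot1 is an unspliced antisense RNA made from the paternal copy of the Kcnq1 locus, where it silences neighbouring genes on the same chromosome. Meg3 and Rian come from the maternal copy of the Dlk1-Dio3 domain, whose paternal copy expresses the growth regulator Dlk1. Miat, also called Gomafu, is known from neurons.

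The promoter windows of 4 members are printed because Kcnq1ot1 had separate groups, Rian followed Meg3 from library to library, and Malat1 was the most abundant. Windows run from 250 bases before to 50 bases after the annotated start, from RefSeq on GRCm38.p6, which is not the build of the counts (GRCm39). The RefSeq table held 5 of the 6 members, not Neat1. Capitals mark the matches, on both strands, of 4 motifs picked with the results known: TGACGTCA (the cAMP response element), CCAAT (the CCAAT box), TATAAA (the TATA box) and TGCCGC (the core bound by the imprinting factor ZFP57).
Malat1, chr19:5802623-5802922, - strand: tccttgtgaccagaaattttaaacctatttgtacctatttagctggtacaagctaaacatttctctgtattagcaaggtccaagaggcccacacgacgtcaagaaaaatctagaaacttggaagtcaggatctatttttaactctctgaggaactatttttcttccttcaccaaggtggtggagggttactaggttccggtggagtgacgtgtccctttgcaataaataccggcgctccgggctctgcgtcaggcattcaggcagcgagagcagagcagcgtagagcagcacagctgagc
Kcnq1ot1, chr7:143296498-143296797, - strand: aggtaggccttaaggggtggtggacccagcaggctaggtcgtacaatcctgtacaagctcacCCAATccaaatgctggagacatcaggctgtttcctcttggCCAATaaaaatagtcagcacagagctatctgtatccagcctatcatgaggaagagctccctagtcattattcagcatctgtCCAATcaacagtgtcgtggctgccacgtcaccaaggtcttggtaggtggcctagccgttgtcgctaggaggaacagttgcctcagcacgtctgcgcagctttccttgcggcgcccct
Meg3, chr12:109540746-109541045, + strand: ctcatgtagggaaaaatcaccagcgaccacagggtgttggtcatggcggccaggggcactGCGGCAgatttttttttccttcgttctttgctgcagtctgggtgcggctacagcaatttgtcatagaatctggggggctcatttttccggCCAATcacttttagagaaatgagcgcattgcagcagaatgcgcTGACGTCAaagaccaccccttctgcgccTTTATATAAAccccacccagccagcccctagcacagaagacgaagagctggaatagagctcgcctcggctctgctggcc
Rian, chr12:109603695-109603994, + strand: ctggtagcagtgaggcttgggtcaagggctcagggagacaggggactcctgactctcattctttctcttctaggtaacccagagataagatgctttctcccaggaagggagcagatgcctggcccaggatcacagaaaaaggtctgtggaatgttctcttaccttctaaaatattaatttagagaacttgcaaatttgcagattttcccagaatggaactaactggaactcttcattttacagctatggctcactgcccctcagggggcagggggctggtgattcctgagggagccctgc
Kcnq1ot1 had 3 CCAAT boxes, with first bases at -188, -148 and -67 from the start, and 37.4% of all 32851 windows held at least 1. Meg3 had a CCAAT box at -100 and a cAMP response element at -57, which 1.79% of windows held. It also had TATAAA at -25 and, on the other strand, at -29, which share bases, and TGCCGC on the other strand at -190 (13.6% and 11.6% of windows). RefSeq lists a further start of Meg3, whose window held none of the 4 motifs and is not shown. The Malat1 and Rian windows held none of the 4. CpG dinucleotides numbered 10 in Malat1, 9 in Kcnq1ot1, 13 in Meg3 and 0 in Rian, against a median of 7 over all windows (3 and 20 at the 25th and 75th percentile). A match describes the letters only.

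Total counts ran from 68357478 (control 2) to 112566641 (control 3) per library. Markers of hepatocytes (Alb, Apoa1, Ttr, Hnf4a, Cps1 and Serpina1c) summed to 58992 to 71173 CPM in control and 65068 to 77047 in PP-MP libraries, and 0 of the 6 separated the groups, so the liver label was met in all libraries. CPM are read counts relative to library size, scaled by TMM factors, which align the libraries on genes that differ little. Control 2 stood apart: the 18S ribosomal RNA gene Rn18s-rs5 was at 126852 CPM there, against 30491 and 12366 in control 1 and 3 and 5964 to 7271 in PP-MP. Of 18284 genes tested with edgeR, 2 passed an adjusted p of 0.05 (0.0109%), 1 higher and 1 lower in PP-MP (0.00547% each). An unadjusted p under 0.05 was reached by 13.9% (8.05% higher, 5.81% lower), and DESeq2 called 777 genes (4.25%).

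Of the 6 lncRNAs, 5 were detected, and all 5 had a higher mean in PP-MP than in control, from 1.66-fold (Malat1) to 5.22-fold (Neat1). These 5 passed the filter on low counts and Miat did not. In 2 of them, Neat1 and Kcnq1ot1, every PP-MP library lay above every control library, as did 12.2% of all genes tested and 31.2% of the 1479 lncRNA genes tested. None of the 5 was separated downward, where 9.79% of all genes and 2.84% of lncRNA genes were. In the other 3, control 2 lay above the lowest PP-MP library. Scaled by library totals in place of TMM factors, all 5 were separated, as were 24.5% of all genes and 42.3% of lncRNA genes. That scaling moved the median log2 fold change of all genes from 0.03 to 0.26. Without control 2, a count chosen after seeing the data, the 5 were also separated, against 24.0% of all genes and 45.5% of lncRNA genes. Without PP-MP 1, 4 were separated (16.3% of all genes), and without both libraries 5 (28.8%).

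**Figure D1:**
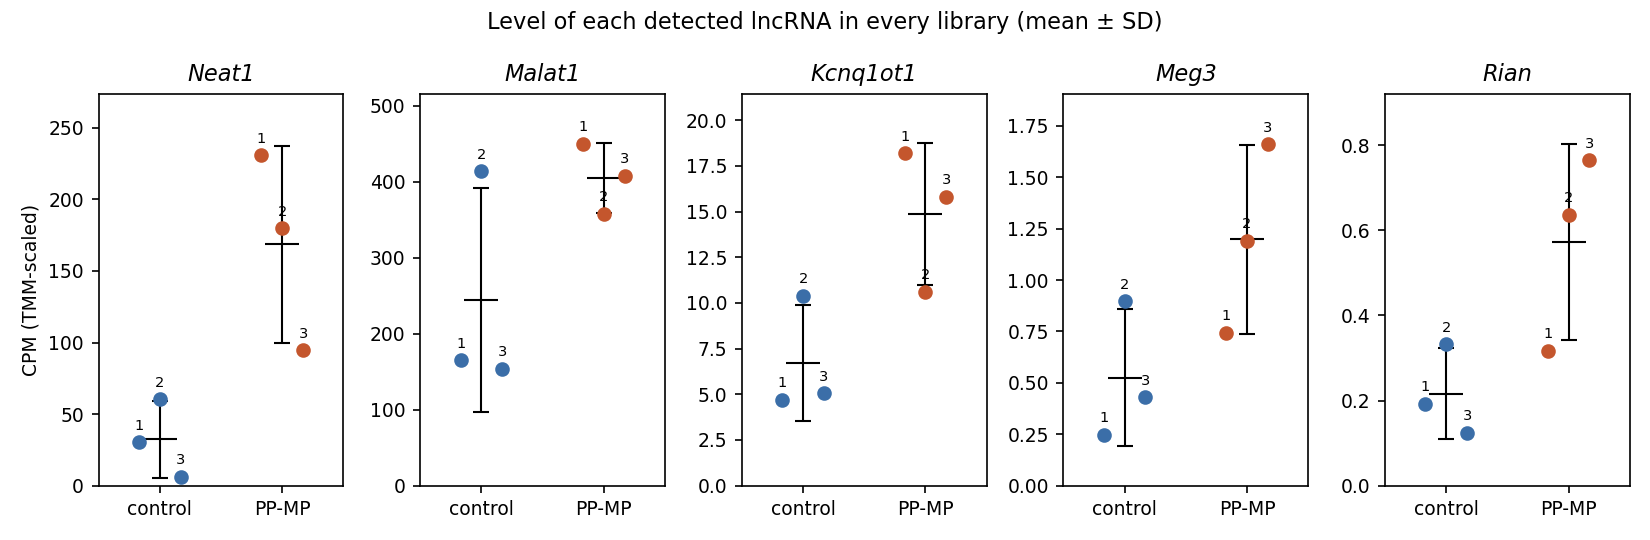
CPM of each detected lncRNA (vertical axes start at 0, 1 scale per panel) in control (blue) and PP-MP (orange) libraries, numbered by replicate, with the mean and SD of each group. Control 2 is the highest control library in all 5 panels, and the groups do not overlap for Neat1 and Kcnq1ot1.

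Neat1 had the largest difference of the 5. It was at 30.2, 60.4 and 6.34 CPM in control 1, 2 and 3 (2192, 3642 and 663 reads) and at 231, 180 and 94.5 CPM in PP-MP 1, 2 and 3 (23292, 16440 and 9774 reads). The lowest PP-MP library was 1.56-fold above the highest control library, while the control libraries differed 9.53-fold among themselves. The means were 32.3 ± 27.1 and 169 ± 68.9 CPM (SD, n = 3 per group), and the log2 fold change from the fit over all genes was 2.38 (SE 0.77). It ran from 1.93 to 3.24 when 1 library was left out, the higher value without control 2.

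Malat1 was the most abundant member and the one with the smallest difference. It was at 165, 414 and 154 CPM in control 1, 2 and 3 and at 450, 358 and 408 CPM in PP-MP 1, 2 and 3. Control 2 lay among the PP-MP libraries, while control 1 and 3 lay below all of them. The means were 244 ± 147 and 406 ± 46.1 CPM (SD, n = 3 per group), with a log2 fold change of 0.73 (SE 0.40). Without control 2 it was 1.36, and without control 1 or 3 or a PP-MP library it was 0.51 or more. Malat1 made up 86.8% ± 5.39 of the reads of the 6 genes in control, against 69.2% ± 7.92 in PP-MP, and Neat1 10.4% ± 5.88 and 27.9% ± 8.48. Neat1 reads per Malat1 read were 0.183, 0.146 and 0.0411 in control 1, 2 and 3, against 0.512, 0.503 and 0.232 in PP-MP 1, 2 and 3. This ratio needs no scaling between libraries, and its groups did not overlap. Both genes were chosen by this contrast and the groups of Neat1 were already separate, so the ratio is a description only.

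The genes around Neat1 and Malat1 on chromosome 19 gave no call. Of 14 tested from a list of 17 neighbours, 0 passed the edgeR threshold, 1 reached an unadjusted p under 0.05 and 0 were called by DESeq2, with 6 higher and 8 lower fitted values and a median log2 fold change of -0.04, beside 0.03 over all genes. Frmd8, a cofactor of rhomboid proteins that neighbours Neat1, was at 12.5 ± 2.19 CPM in control and 12.1 ± 0.952 in PP-MP. Its log2 fold change was -0.04 (SE 0.17), and it turned positive with library totals (0.19). The 2 neighbours of smallest p were Znrd2 (log2 fold change -0.63, edgeR adjusted p = 0.36) and Rela, a subunit of NF-kB (-0.28, edgeR adjusted p = 0.44).

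Kcnq1ot1 was at 4.70, 10.4 and 5.07 CPM in control 1, 2 and 3 (341, 626 and 530 reads) and at 18.2, 10.6 and 15.8 CPM in PP-MP 1, 2 and 3 (1842, 966 and 1631 reads). The groups did not overlap, but PP-MP 2 stood only 1.02-fold above control 2. The means were 6.72 ± 3.18 and 14.9 ± 3.90 CPM (SD, n = 3 per group), with a log2 fold change of 1.15 (SE 0.37). Kcnq1, the potassium channel gene on the other strand, was at 0.813, 0.912 and 0.851 CPM in control and at 0.307, 0.692 and 0.541 CPM in PP-MP. Each PP-MP library was below each control library, but the difference missed the threshold (log2 -0.74, SE 0.37, edgeR adjusted p = 0.42). Exons of the Kcnq1ot1 and Kcnq1 models overlap, and the sources used here give no strand setting for the counting, so reads of the pair cannot be told apart with certainty. Kcnq1ot1 reads per Kcnq1 read were 5.78, 11.4 and 5.96 in the controls, against 59.4, 15.3 and 29.1 in PP-MP.

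Other genes of the Kcnq1 domain had mostly lower fitted values. Of 17 listed, 11 were tested, 8 with a lower and 3 with a higher value and a median log2 fold change of -0.34, beside 0.03 over all genes. With edgeR 0 passed, while 2 reached an unadjusted p under 0.05 (1 in each direction) and DESeq2 called 0. Of the 11, 2 were separated upward (Tnfrsf22 and Tnfrsf26) and 2 downward (Kcnq1 and Cd81), beside 12.2% and 9.79% of all genes. The median was -0.10 with library totals (0.26 over all genes) and -0.11 without PP-MP 3 (0.03 over all genes). Cd81, a tetraspanin, was at 240 ± 47.8 CPM in control and 153 ± 26.8 in PP-MP (log2 fold change -0.65, SE 0.21, edgeR adjusted p = 0.30, lower in 3 of 3 libraries). Tnfrsf22, a decoy receptor for TRAIL, was at 0.205 ± 0.0124 and 0.454 ± 0.187 CPM (log2 difference 1.15, SE 0.45, edgeR adjusted p = 0.34, higher in 3 of 3 libraries). Cdkn1c, the imprinted cell cycle inhibitor p57, was at 2.20, 1.96 and 1.96 CPM in control and at 1.15, 2.02 and 1.20 CPM in PP-MP, so the groups overlapped through PP-MP 2. The log2 difference was -0.49 (SE 0.30, edgeR adjusted p = 0.49). The placental genes Phlda2 and Ascl2 were at 0 in control and at most 0.0773 CPM in PP-MP, and neither was tested. Phlda2 had 5, 6 and 8 reads in PP-MP 1, 2 and 3, so its groups did not overlap, while Ascl2 had 3, 0 and 0.

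**Figure D2:**
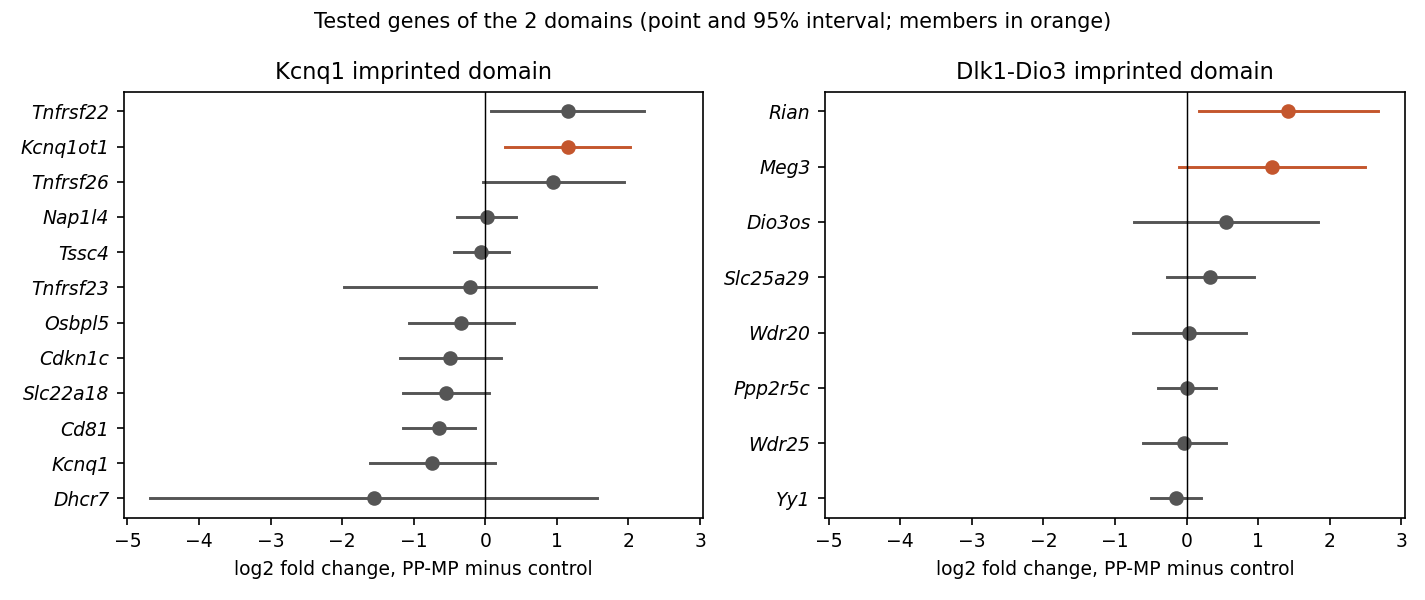
Log2 fold change (PP-MP minus control, horizontal axis, point with 95% interval) of the tested genes of the Kcnq1 domain (left) and the Dlk1-Dio3 domain (right), with the lncRNAs Kcnq1ot1, Meg3 and Rian in orange. Kcnq1ot1 lies at 1.15 and Kcnq1 at -0.74, while Meg3 and Rian lie above the 6 other tested genes listed for their domain. Dlk1, Rtl1, Dio3 and Mirg were not tested and are not drawn. Kcnq1ot1, Meg3 and Rian were chosen by this same contrast, so their intervals are a description and carry no test.

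Meg3 and Rian were low but had reads in every library. Meg3 was at 0.248, 0.896 and 0.430 CPM in control 1, 2 and 3 (18, 54 and 45 reads) and at 0.743, 1.19 and 1.66 CPM in PP-MP 1, 2 and 3 (75, 108 and 172 reads). Rian was at 0.193, 0.332 and 0.124 CPM in control (14, 20 and 13 reads) and at 0.317, 0.637 and 0.764 CPM in PP-MP (32, 58 and 79 reads). In both genes PP-MP 3 was highest and control 2 lay above PP-MP 1, so the groups overlapped. The log2 fold changes were 1.20 (SE 0.54) for Meg3 and 1.42 (SE 0.53) for Rian. PP-MP 1 was the lowest PP-MP library for Meg3 and Rian and the highest for Neat1, Malat1 and Kcnq1ot1. Meg3 reads per Rian read were 1.29, 2.70 and 3.46 in the controls, against 2.34, 1.86 and 2.18 in PP-MP, with overlap.

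Mirg, which follows Rian along the domain and hosts many microRNAs, had 0, 0 and 3 reads in the controls, against 15, 5 and 14 in PP-MP, and was too low to be tested. Of 16 genes listed for the Dlk1-Dio3 domain 6 were tested: Dio3os, Wdr25, Ppp2r5c, Yy1, Slc25a29 and Wdr20. Of these, 0 passed the edgeR threshold, 0 reached an unadjusted p under 0.05 and DESeq2 called 0, and their median log2 fold change was 0.02. Dlk1, Rtl1, Dio3 and Mirg were not tested, so this median does not cover them. Dlk1, the imprinted growth regulator, had 0 reads in every control library and at most 8 in a PP-MP library, and Rtl1, a retrotransposon-derived gene, had 0 in all 6. Dio3, the deiodinase that inactivates thyroid hormone, was at 0.0478 ± 0.0324 CPM in control and 0.0566 ± 0.0223 in PP-MP. The tested genes of smallest p were Slc25a29, a mitochondrial carrier (log2 fold change 0.33, edgeR adjusted p = 0.58), and Dio3os (0.55, edgeR adjusted p = 0.67). Rows for small RNAs inside the Rian and Meg3 models, snoRNAs and microRNAs, held at most 1 read per library.

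Miat had 0 reads in all 6 libraries. A count of 0 allows up to 3 reads, which is at most 0.0498 CPM (control 2) and at least 0.0287 CPM (control 3), for counting error only. Among neuron markers, Snap25 was also at 0 in all libraries, and the list of 5 summed to 1.21 to 1.99 CPM in control and 1.86 to 2.02 in PP-MP.

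Levels of different genes are comparable only per length. Per kilobase of exonic length (GENCODE M21, on GRCm38), Malat1 was at 35.0 CPM in control, against 58.1 in PP-MP, Neat1 at 1.56 and 8.12, Kcnq1ot1 at 0.0721 and 0.160, Meg3 at 0.0290 and 0.0662 and Rian at 0.0119 and 0.0314. This order held for the group means of both diets. The ranges over the 6 libraries of Malat1 (22.1 to 64.5) and Neat1 (0.305 to 11.1) did not overlap, nor did those of Neat1 and Kcnq1ot1 (0.0505 to 0.196). Those of Kcnq1ot1 and Meg3 (0.0137 to 0.0919) overlapped, as did those of Meg3 and Rian (0.00682 to 0.0419). Neat1 has a short polyadenylated and a long form, and the length used is that of the long one. Malat1, Neat1 and Kcnq1ot1 each form 1 exonic block, whereas Meg3 has 8 and Rian 19. By mean CPM, Malat1 ranked first of the lncRNA genes tested and Rian at percentile 45.6.

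The sign of the 5 was that of most lncRNA genes tested, and 31.2% of all those tested had groups separated upward. The 1479 lncRNA genes tested were at a median log2 fold change of 0.54, with 1166 higher (78.8%), beside -0.00 over 13594 protein-coding genes (49.7% higher). Among lncRNA genes the value of Malat1 stood at percentile 58.2, Kcnq1ot1 at 75.6, Meg3 at 77.1, Rian at 83.7 and Neat1 at 97.0. In splits added after seeing the data, the median was 0.44 over the 449 lncRNA genes with a mean of at least 1 CPM and 0.61 over the 1030 below it. It was 0.44 over 233 lncRNA genes with 1 exonic block, like Neat1, Malat1 and Kcnq1ot1, and 0.56 over 1246 with more. Protein-coding genes also differed by level. Their median was -0.03 over 11152 with a mean of at least 1 CPM (46% higher) and 0.28 over 2442 below it (66.4% higher). The 6 genes took 7.45% ± 3.34 of all lncRNA reads in control and 13.9% ± 2.21 in PP-MP. Without them, lncRNA genes took 0.309% ± 0.0270 of all reads in control and 0.396% ± 0.00926 in PP-MP.

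**Figure D3:**
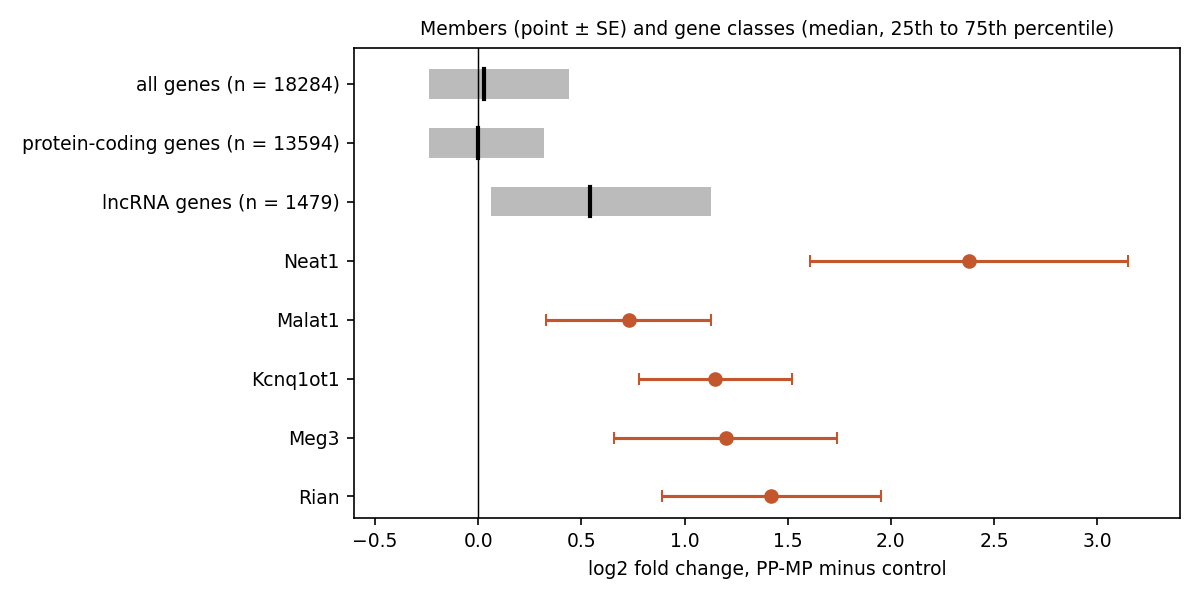
Log2 fold change (PP-MP minus control, horizontal axis) of the 5 detected lncRNAs (point and SE) below the median (black line) and the 25th to 75th percentile (grey bar) of all genes, protein-coding genes and lncRNA genes. Neat1, at 2.38, lies beyond the grey bar of lncRNA genes, and Malat1, at 0.73, lies inside it.

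Other lncRNAs gave no call in edgeR. In a list of 44 nuclear or widely expressed lncRNAs, 33 were tested, 27 with a higher and 6 with a lower value and a median log2 fold change of 0.55. With edgeR 0 passed, 12 reached an unadjusted p under 0.05 (10 upward, 2 downward), while DESeq2 called 5 upward and 2 downward. Snhg20, a snoRNA host gene, was at 1.80 ± 0.393 CPM in control and 4.63 ± 0.536 in PP-MP (log2 fold change 1.37, SE 0.24, edgeR adjusted p = 0.18, higher in 3 of 3 libraries). Of 12 other imprinted non-coding RNAs 4 were tested, 3 with a higher and 1 with a lower value and a median log2 fold change of 0.58. With edgeR 0 passed, 1 reached an unadjusted p under 0.05 and DESeq2 called 0. A filter at a mean of 1 CPM removed Airn, Snhg14 and H19, so the value of -0.01 under that filter rests on 1 gene. Airn, which like Kcnq1ot1 is a long paternal antisense RNA that silences in cis, was at 0.469 ± 0.182 CPM in control and 1.16 ± 0.306 in PP-MP. Its groups did not overlap, and its log2 difference of 1.31 (SE 0.39) missed the threshold (edgeR adjusted p = 0.26). Snhg14, the host of the Prader-Willi snoRNAs, overlapped (log2 fold change 0.66, edgeR adjusted p = 0.54). H19, the maternal RNA of the Igf2 locus, was at 0.265 ± 0.0477 and 0.373 ± 0.329 CPM (log2 difference 0.49, SE 0.67), and turned to -0.50 without PP-MP 2.

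Imprinted protein-coding genes did not share a direction. Of 23 tested, 11 had a higher and 12 a lower value (median -0.15, turning to 0.08 with library totals and to 0.02 without control 3), 0 passed with edgeR, 4 reached an unadjusted p under 0.05 (2 in each direction) and DESeq2 called 1, Peg3. Peg3, a paternally expressed zinc finger gene, was at 0.0964, 0.265 and 0.0287 CPM in control and at 0.803, 7.19 and 12.5 CPM in PP-MP (log2 difference 5.79, SE 1.23, edgeR adjusted p = 0.20, DESeq2 adjusted p = 2.9e-07). The log2 difference was 5.0 without PP-MP 3 and 6.82 without control 2. PP-MP 1 had the lowest of the 3 PP-MP values, as for Meg3 and Rian. Snrpn, a spliceosomal gene of the Prader-Willi region, was at 12.6 ± 1.37 and 8.86 ± 0.847 CPM (log2 difference -0.51, SE 0.16, edgeR adjusted p = 0.28, lower in 3 of 3 libraries).

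Genes of the proteins that Neat1 gathers in paraspeckles gave no edgeR call. Of 33 tested, 19 had a higher and 14 a lower value (median log2 fold change 0.11), 0 passed with edgeR, 9 reached an unadjusted p under 0.05, all higher, and DESeq2 called 2, Rbm4b and Akap8l. The core paraspeckle proteins Nono (69.4 ± 2.87 CPM in control, 62.4 ± 2.07 in PP-MP), Sfpq (10.2 ± 6.75 and 7.14 ± 3.75) and Pspc1 (6.16 ± 0.842 and 5.15 ± 0.442) had log2 fold changes of -0.15, -0.52 and -0.26. Nono turned to 0.08 with library totals and Sfpq to 0.18 without control 2. Rbm4b, a splicing regulator, was at 5.52 ± 0.784 and 15.2 ± 1.46 CPM (log2 difference 1.46, SE 0.17, edgeR adjusted p = 0.13, higher in 3 of 3 libraries). Akap8l, a nuclear anchoring protein, was at 3.56 ± 1.87 and 12.4 ± 3.39 CPM (log2 difference 1.80, SE 0.43, edgeR adjusted p = 0.22, higher in 3 of 3 libraries).

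Nuclear speckle proteins, the neighbours of Malat1 in the nucleus, were at a median log2 fold change of 0.37 in 27 tested, with 16 higher and 11 lower. With edgeR 0 passed, 10 reached an unadjusted p under 0.05, all higher, and DESeq2 called 2. The groups were separated upward for 10 of the 27 and downward for 0, beside 9.30% and 10.6% of protein-coding genes. In the paraspeckle list 8 of 33 were separated upward and 3 downward. Both lists were chosen with earlier results of these data known, so these counts are a description only. Srsf7 and Srsf6, SR splicing factors, had log2 differences of 0.90 (SE 0.22, edgeR adjusted p = 0.22) and 0.69 (SE 0.19, edgeR adjusted p = 0.24), both higher in 3 of 3 libraries. Without control 2, edgeR called 5 genes of all the lists, all higher: the speckle genes Pnn, Clk1 and Luc7l3, the paraspeckle gene Rbm4b, and Zfc3h1 of the nuclear exosome. Of these, Pnn, Clk1 and Luc7l3 were named after their values were seen. Pnn was at 8.64, 21.9 and 8.23 CPM in control and at 32.4, 36.8 and 37.3 CPM in PP-MP. As for Malat1, control 2 was the highest control library.

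Genes that process lncRNA ends or modify RNA (27 tested) had a median of 0.13, with 3 at an unadjusted p under 0.05. Zfc3h1 was at 14.8 ± 7.41 and 29.6 ± 1.83 CPM (edgeR adjusted p = 0.30) and Pabpn1, the nuclear poly(A)-binding protein, at 37.5 ± 6.13 and 57.1 ± 10.1 CPM (edgeR adjusted p = 0.28). Transcription factors known to act on Neat1, such as Hif1a and Trp53 (13 tested), had a median of 0.00 and 0 at an unadjusted p under 0.05, Irf7 having the second smallest p (log2 fold change -0.50, edgeR adjusted p = 0.46). Chromatin partners (19 tested) had a median of -0.04 and 3 at an unadjusted p under 0.05. The leading ones were Tet2, a 5-methylcytosine oxidase (log2 fold change 1.16, SE 0.31, edgeR adjusted p = 0.24), and Cbx7, a Polycomb subunit (-0.78, SE 0.26, edgeR adjusted p = 0.30). In these 3 lists 0 passed with edgeR, and DESeq2 called 1, Tet2.

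Summed markers of cell types are given beside the members. Over all genes tested, 12.2% were separated upward and 9.79% downward. Kupffer cell and macrophage markers summed to 111 to 147 CPM in control and to 566, 332 and 151 CPM in PP-MP 1, 2 and 3. Of the 8, 2 were separated upward. Marco, 1 of these, was at most 3.53 CPM in control and at 138, 66.6 and 24.2 CPM in PP-MP 1, 2 and 3. The other 6 overlapped, and in PP-MP 3 Clec4f, Adgre1, Csf1r and Vsig4 lay within their control ranges. Neutrophil markers summed to 1.18 to 1.75 CPM in control and to 24.0, 5.07 and 3.03 CPM in PP-MP 1, 2 and 3, with 2 of 6 separated. Mpo and Ly6g were at 0 in control and also in PP-MP 3, so their groups overlapped, and neither was tested. Neat1 had the same order of the PP-MP libraries as the macrophage and neutrophil sums. The order was not particular to these. The B and plasma cell (385, 76.4 and 7.46 CPM in PP-MP 1, 2 and 3), cholangiocyte (23.1, 17.6 and 12.5) and T and NK cell sums (3.28, 2.62 and 2.57) had it too. Meg3 and Rian had the reverse order, and Malat1 and Kcnq1ot1 had another. Among control libraries Neat1 was highest in control 2, where the macrophage and neutrophil sums were lowest. Hepatic stellate markers summed to 459 to 477 CPM in control, against 399 to 611 in PP-MP (2 of 10 separated upward), and sinusoidal endothelial markers to 101 to 127 and 96.1 to 161 (0 of 8). T and NK cell (3.43 to 5.92 and 2.57 to 3.28 CPM), B and plasma cell (18.3 to 53.9 and 7.46 to 385), cholangiocyte (12 to 27 and 12.5 to 23.1) and erythroid markers (186 to 329 and 251 to 479) had 0 genes separated upward. Of these, 1 of 6 T and NK cell genes and 1 of 4 erythroid genes were separated downward, as was the T and NK cell sum. None of the markers of these 8 lists was at 0 in all libraries. The part of these cells in the values of the 5 lncRNAs was not tested, and in bulk RNA more cells of a type and more RNA per cell cannot be told apart.

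Values of 3 RNAs that lack a poly(A) tail are given beside the members, though edgeR called none of them. Rmrp, the RNA of RNase MRP, was at 6.46, 37.0 and 3.59 CPM in control and at 1.24, 1.19 and 0.967 CPM in PP-MP. Its log2 difference was -3.79 (SE 0.91, edgeR adjusted p = 0.22, DESeq2 adjusted p = 4.2e-05), and -2.13 without control 2. Rpph1, the RNA of RNase P, named after its values were seen, was at 13.0, 86.3 and 8.78 CPM in control and at 3.24, 2.69 and 2.56 CPM in PP-MP (edgeR adjusted p = 0.23, DESeq2 adjusted p = 8.6e-05). Terc, the telomerase RNA, from the same list, had 0 to 3 reads per library and overlapping groups, and was not tested. Control 2 was thus the highest control library in Rmrp, Rpph1 and Rn18s-rs5 and in all 5 lncRNAs, whereas PP-MP libraries were lower in the former and had higher means in the latter. Poly(A) selection was used, so Malat1 and the long form of Neat1, which lack a usual poly(A) tail, may have been captured in part. How far selection set their values was not tested. Without ribosomal RNA, mitochondrial and haemoglobin genes the log2 fold changes of the 5 moved by little, to 2.41 for Neat1 and 0.75 for Malat1. That removal changed only the genes fitted and their scaling, so it does not measure the capture of RNAs without a poly(A) tail.

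**Figure D4:**
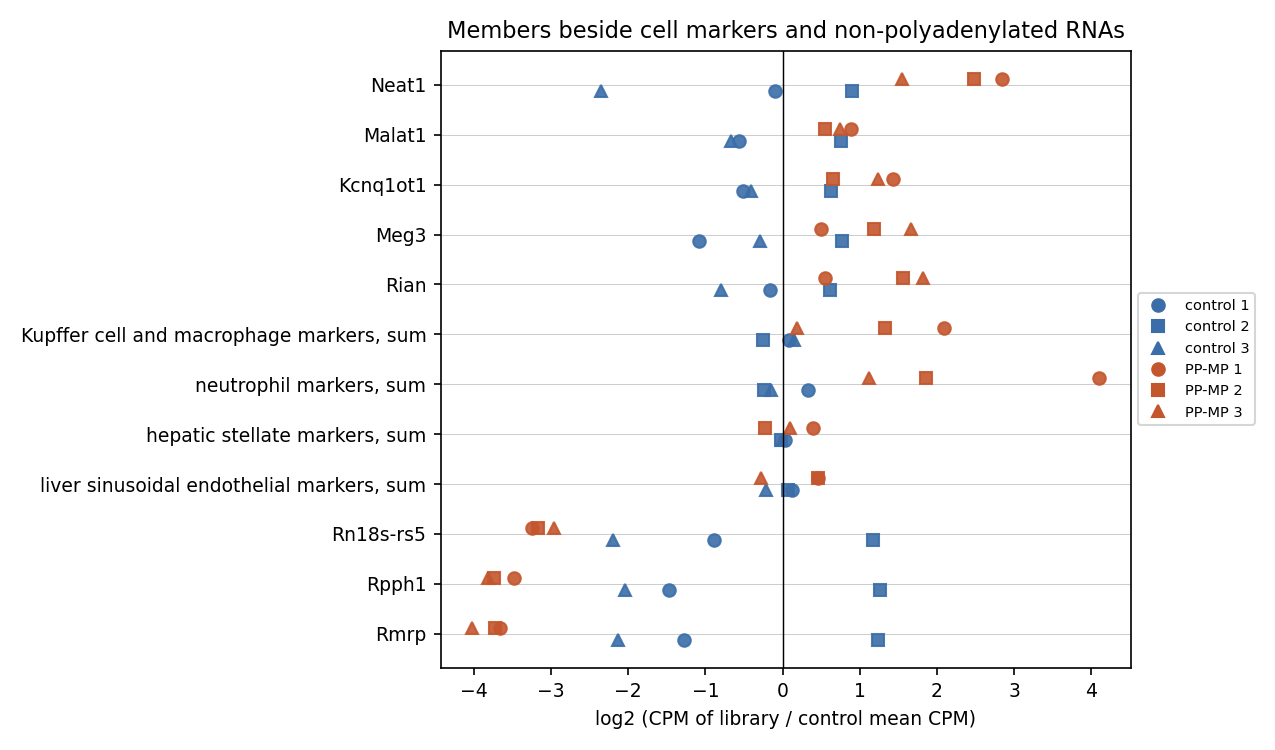
Log2 ratio of each library to the control mean (horizontal axis) for the 5 lncRNAs, summed cell markers and the non-polyadenylated RNAs Rn18s-rs5, Rpph1 and Rmrp. Control libraries are in blue and PP-MP in orange, with replicate 1, 2 and 3 as circle, square and triangle. Control 2 (blue square) is the rightmost control library in the 5 lncRNAs, Rn18s-rs5, Rpph1 and Rmrp. PP-MP 1 (orange circle) is the rightmost library in Neat1, Malat1, Kcnq1ot1, both myeloid sums and the hepatic stellate sum. In the sinusoidal endothelial sum it is level with PP-MP 2.

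Across the 6 libraries the members followed each other to different degrees. Pearson's r of log2 CPM was 0.95 between Malat1 and Kcnq1ot1 and 0.89 between Meg3 and Rian, and lowest, 0.63, between Neat1 and Meg3. For deviations from the group means, which leave out the diet difference, r was 0.92, 0.75 and 0.11 for these pairs. These describe 6 libraries that share their scaling. Of 11418 or 11419 other genes at a mean of at least 1 CPM, the profiles most like Neat1 were Ddah2 (r = 0.989), Ccnl1, a cyclin of splicing kinases (0.988), and Mdn1, a ribosome assembly ATPase (0.988). Those most like Malat1 were Ccdc82 (r = 0.998), Hace1, a ubiquitin ligase (0.997), and Inhba, an activin subunit (0.996). Kcnq1ot1 was most like Primpol, a primase-polymerase (r = 0.996), Tdrd3 (0.992) and Carf (0.991). Meg3 was most like Zfp354b (r = 0.987), Zfp668 (0.985) and the chemokine gene Ccl25 (0.984), and Rian most like Kri1 (r = 0.993), Cxxc1, a CpG-binding protein (0.990), and Scaf4 (0.989). With 6 libraries such values were common: 416 genes had an r above 0.9 with Malat1 and 141 with Rian.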

How the data were processed

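Liver RNA was poly(A)-selected and made into directional libraries, per the labels. The authors deposited raw read counts per gene. The build GRCm39 and the tool bcl2fastq are named, per the submitters' processing notes. For the aligner, counting tool, annotation and strand setting: not given in the sources used here. Per-sample files of counts were identical to the columns of the series table.

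Counts were filtered (filterByExpr by group), scaled with TMM and tested with the robust quasi-likelihood test of edgeR 4.0.16 (R 4.3.3), as two-sided p adjusted by Benjamini-Hochberg across 18284 genes. SEs come from the same fit. CPM were put on the effective library sizes, and log2 CPM used a prior count of 2. Alternatives were DESeq2 1.42.0 size factors and test, limma-voom (limma 3.58.1), library totals, no filter, a mean CPM of 1, a replicate block, a threshold of 0.1, removal of 165 ribosomal RNA, mitochondrial and haemoglobin genes, and left-out libraries. Gene class, exonic length and overlap came from GENCODE M21 (GRCm38), matched by symbol. Members, lists and motifs were chosen with earlier results of these data known. Rn18s-rs5, Rpph1, Pnn, Clk1, Luc7l3, Mpo, Ly6g, Marco, Clec4f, Adgre1, Csf1r, Vsig4, the class splits and the lines of the marker plot were chosen after values were seen. Named genes are the members, 2 genes of smallest p per list, 12 set partners (1 is not reported here), and 3 most alike genes per member. No 2 libraries of a group were duplicates (chi-square over its degrees of freedom 154 to 928). On simulated data for this comparison (17828 genes), 72.7% of 66 genes changed 4-fold and 7.46% of 67 changed 2-fold were recovered, with 6 false calls among 60.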

Additional observations from a re-analysis of the deposited data

How the results depend on the processing

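All 5 detected lncRNAs kept a higher fitted value in PP-MP under all alternatives run. Leaving out 1 library gave log2 fold changes of 1.93 to 3.24 for Neat1, 0.51 to 1.36 for Malat1, 0.97 to 1.63 for Kcnq1ot1, 0.87 to 1.81 for Meg3 and 1.14 to 1.86 for Rian. Without control 2 and PP-MP 1 together, Meg3 was at 2.05 and Rian at 2.15. A filter at a mean CPM of 1 removed Meg3 and Rian. The number of separated lncRNAs was 2 to 5 with 1 library left out (14.8% to 24.0% of all genes), 5 with library totals (24.5%) and 5 without control 2 and PP-MP 1 (28.8%, and 52.9% of lncRNA genes). These counts were chosen after seeing the data. The 2 calls across all genes became 1 with library totals, 777 with DESeq2, 1 with limma-voom and 0 to 92 with 1 library left out. Of the listed genes 0 were called, but 13 with DESeq2 and 0 to 5 with 1 library left out. With the replicate block 0 genes were called across all genes, and correlations of same-numbered libraries (-0.0808, -0.102 and 0.0388) give no sign that the numbers pair samples. With library totals the medians of the Neat1-Malat1 neighbours and of the chromatin partners turned from -0.04 to 0.19 each. Signs of uncalled genes turned with library totals for Frmd8 (0.19) and Nono (0.08), and for Frmd8 without a filter (0.00). With 1 library left out, Dio3os ran from -0.18 to 0.91, H19 from -0.50 to 0.91, Frmd8 from -0.15 to 0.09 and Sfpq from -0.82 to 0.18. The cause of these changes was not tested. Depth limits Meg3 and Rian, with 13 to 172 reads per library.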
